A study of Homo sapiens with 8 samples.

Results

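The genes described here are 10 that mark stem cells of the intestinal crypt or respond to Wnt signalling, chosen by symbol: the receptors LGR5 and LGR4, the ubiquitin ligases RNF43 and ZNRF3, the scaffold AXIN2, the transcription factor ASCL2, the secreted proteins SMOC2 and OLFM4, and the receptors EPHB2 and EPHB3. All 10 were found among the 58302 gene IDs of the count tables, and 9 had enough counts to be tested. OLFM4 did not pass the filter on low counts.

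Expression was measured by strand-specific, rRNA-depleted RNA-seq in Caco-2/15 cells, a human colon cancer line whose confluent cultures take on traits of absorptive enterocytes. Both lines compared carry a Flag epitope tag, placed heterozygously by CRISPR-Cas9 on an H2A.Z histone gene: H2AFV (protein H2A.Z.2) in Z2flag cells and H2AFZ (protein H2A.Z.1) in Z1flag cells. Each line was sampled 7 days after confluence (postconfluent) and before confluence (subconfluent), with 2 libraries in each of the 4 groups. Every library thus comes from tagged cells, and the sources used here do not say whether a line is 1 clone. The labels name duplicates and number them by experiment, without saying that they are separate cultures. The p-values thus measure the spread between these samples, which may be technical.

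In the crypt, Wnt ligands from the stem cell niche stabilise beta-catenin, which joins TCF/LEF factors on DNA and switches on target genes. R-spondins strengthen the signal: bound to LGR receptors, they remove the membrane ligases RNF43 and ZNRF3, which otherwise clear Frizzled receptors from the cell surface. Several of the genes described are targets of the pathway that they also regulate. As cells leave the crypt and differentiate, Wnt signalling and the stem cell markers decline. Caco-2 cells carry a truncated APC, a part of the complex that degrades beta-catenin.

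Gene counts per library ranged from 17063826 to 40881682. Reads outside annotated genes made up 31.4% and 32.0% in replicate 1 of postconfluent and subconfluent Z1flag cells and 20.6% to 24.5% in the other 6 libraries. Postconfluent Z1flag replicate 1 also stood apart in content. A list of 14 proliferation genes summed to 1659 CPM there, the unit of a gene's count relative to its scaled library total, and to 2665 to 2867 CPM in the other 3 postconfluent libraries, against 4162 to 4478 CPM in the subconfluent libraries. Of these 14 genes, 11 fell after confluence by edgeR's test over both lines and 0 rose, where 27.5% of all genes fell, with a median log2 fold change of -1.16 against -0.01 over all genes. Within Z2flag cells 7 fell (median -0.87), where 19.3% of all genes did, and within Z1flag cells 11 fell (median -1.42), where 19.1% did. MKI67, which marks cycling cells, fell to 203 ± 44.7 CPM in postconfluent cells, against 545 ± 71.5 CPM in subconfluent cells (SD, n = 4 each), and the replication genes PCNA and MCM5 had log2 fold changes of -1.80 (SE 0.19) and -1.98 (SE 0.22). All of these changes are of bulk RNA, in which fewer cells of a type and less RNA per cell cannot be told apart. The part of proliferation in the changes of the 10 genes was not tested.

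After confluence, 7 of the 9 tested genes fell in each tagged line: LGR5, ASCL2, SMOC2, AXIN2, ZNRF3, EPHB2 and RNF43. EPHB3 rose in both lines. LGR4 rose in Z1flag cells and did not pass in Z2flag cells. In Z2flag cells 8 of 9 genes were thus called by edgeR's quasi-likelihood test at an adjusted p under 0.05, where 37.6% of all 18240 genes tested were called (19.3% lower, 18.3% higher). In Z1flag cells 9 of 9 were called, where 40.5% of all genes were (19.1% lower, 21.3% higher). The median log2 fold change of the 9 genes was -1.95 in Z2flag cells and -1.63 in Z1flag cells, against -0.05 and 0.04 over all genes. Over both lines together 9 of 9 were called, 7 lower and 2 higher, where 55.4% of all genes were called (27.5% lower, 27.8% higher). The postconfluent and subconfluent libraries did not overlap for 9 of 9 genes, 7 lower and 2 higher, in each line and over both. Among all genes 77.5% did not overlap in Z2flag cells (41.2% lower, 36.3% higher) and 68.7% in Z1flag cells (33.5% lower, 35.1% higher). Over both lines 51.2% did not overlap (26.1% lower, 25.1% higher).

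**Figure D1:**
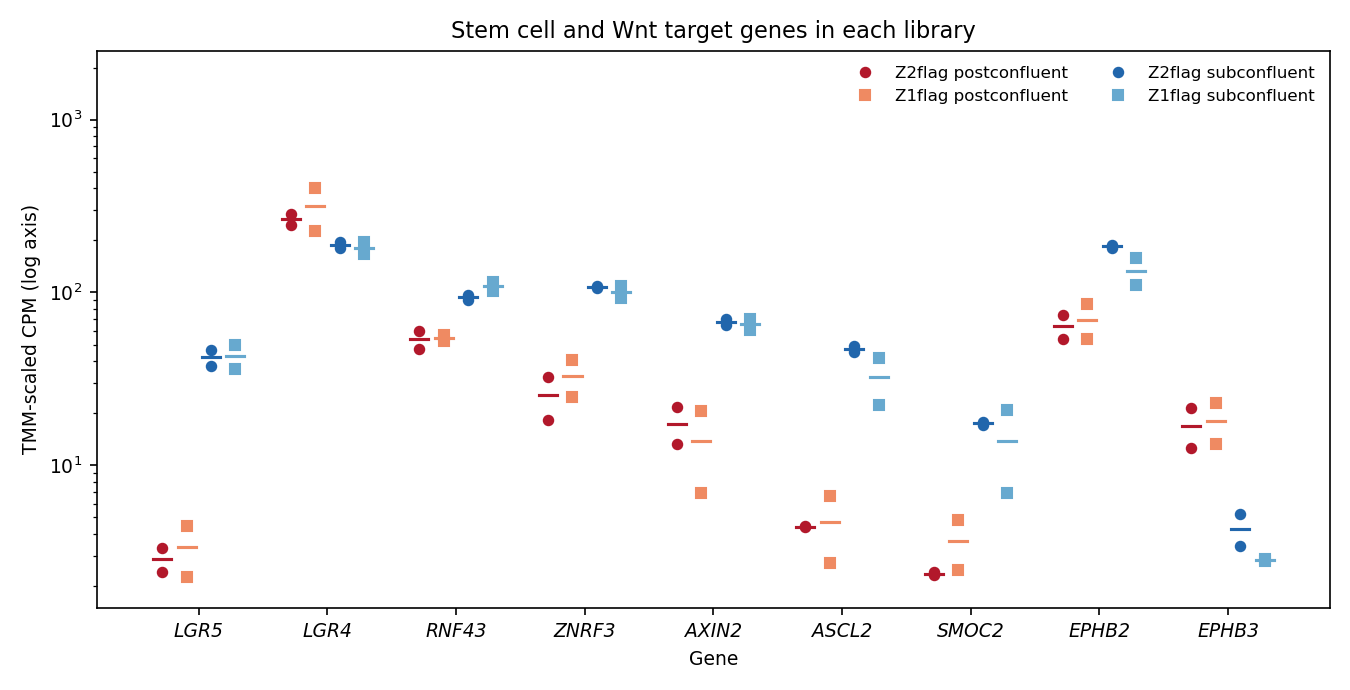
Level of each of the 9 tested genes in every library, as CPM scaled by the trimmed mean of M-values (TMM) on a log axis; points are the 2 libraries of each group and short bars their mean. LGR5 and ASCL2 lie at 2.27 to 6.63 CPM in the postconfluent libraries and at 22.5 to 49.4 CPM in the subconfluent libraries, and EPHB3 and LGR4 are the genes whose postconfluent points lie above the subconfluent ones.

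Among the receptors for R-spondins, LGR5 and LGR4 moved in opposite directions. LGR5, the receptor that marks cycling crypt base stem cells (chromosome 12, 71439770 to 71586310, plus strand, GRCh38), had 2.43 and 3.31 CPM in postconfluent Z2flag cells, against 37.6 and 46.8 CPM in subconfluent Z2flag cells. In Z1flag cells it had 2.27 and 4.44 CPM after confluence, against 35.9 and 49.4 CPM before. All 4 postconfluent libraries lay far below all 4 subconfluent ones, with 44 to 87 reads left per library. The fall was 14.7-fold in Z2flag cells (log2 fold change -3.88, SE 0.36, edgeR adjusted p = 0.000149) and 12.8-fold in Z1flag cells (-3.68, SE 0.35, adjusted p = 0.000151). LGR5 kept its call under every alternative run, with log2 fold changes of -4.05 to -3.59 in Z2flag and -4.23 to -3.22 in Z1flag cells.

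LGR4 (chromosome 11, 27365961 to 27472775, minus strand), the broadly expressed relative of LGR5 with the same ligands, had 246 and 284 CPM in postconfluent Z2flag cells, against 196 and 182 CPM in subconfluent Z2flag cells. Z1flag cells had 404 and 228 CPM after confluence, against 167 and 196 CPM before. The states did not overlap in either line, and postconfluent Z1flag replicate 1 was the highest library. The log2 fold change was 0.49 (SE 0.26, edgeR adjusted p = 0.164) in Z2flag cells and 0.80 (SE 0.26, adjusted p = 0.0348) in Z1flag cells. Over both lines it was 0.64 (SE 0.19, adjusted p = 0.0138). The calls were fragile. In Z1flag cells the call was lost without replicate 1 of the postconfluent group (log2 fold change 0.36, adjusted p = 0.133), without replicate 1 or 2 of its subconfluent group (0.66 and 0.91, adjusted p = 0.205 and 0.0933) and without subconfluent Z2flag replicate 1 or 2 (adjusted p = 0.0582 and 0.0583). In Z2flag cells a call was gained without postconfluent Z1flag replicate 1 or 2 (0.58 in each, adjusted p = 0.00996 and 0.0109). Over both lines it was lost without subconfluent Z1flag replicate 1 (0.56, adjusted p = 0.0675) and subconfluent Z2flag replicate 2 (0.60, adjusted p = 0.0557).

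Per kilobase of exon, LGR5 stood at 0.00678 to 0.0236 of the level of LGR4 in the 4 postconfluent libraries and at 0.232 to 0.311 of it in the 4 subconfluent libraries. The mean log2 ratio was -6.29 ± 0.741 after and -1.87 ± 0.2 before confluence (SD, n = 4 each), a difference of -4.42. With libraries exchanged within each line only, a two-sided exact permutation test allows no p below 0.0556, and this difference reached that value, so it cannot pass the threshold. With the lines pooled, the exact permutation test gave p = 0.0286, also after adjustment over the 3 ratios compared. LGR5 fell and LGR4 rose without overlap, so the ratios had to separate. Both p-values were thus fixed in advance and add no support to these changes. LGR6, the other receptor of this family, had 3 reads in the postconfluent and 2 in the subconfluent libraries. The ligands RSPO1 to RSPO4 had 0 to 4 reads each over all 8 libraries, and 0 of 4 were tested.

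The ubiquitin ligases RNF43 and ZNRF3, which act as brakes on the pathway and are themselves Wnt targets, both fell. RNF43 (chromosome 17, 58352500 to 58417595, minus strand) had 60.2 and 47.2 CPM in postconfluent Z2flag cells, against 90.7 and 96.5 CPM in subconfluent Z2flag cells. In Z1flag cells it had 52.6 and 56.8 CPM after confluence, against 115 and 102 CPM before. This was among the smaller and more even falls of the set, with log2 fold changes of -0.80 (SE 0.19, edgeR adjusted p = 0.00929) in Z2flag and -0.99 (SE 0.19, adjusted p = 0.0031) in Z1flag cells. The Z2flag call was lost without postconfluent replicate 2 of that line (-0.55, adjusted p = 0.116) or its subconfluent replicate 1 or 2 (-0.86 and -0.77, adjusted p = 0.0535 and 0.0854). RNF43 shares 143 bp of exon (1.91% of its exon length) with SUPT4H1 on the same strand and 1521 bp (20.3%) with TSPOAP1-AS1 on the opposite strand, which had 5 to 23 reads per library, so reads from the shared stretches are uncertain.

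ZNRF3 (chromosome 22, 28883592 to 29057487, plus strand) had 18.4 and 32.5 CPM in postconfluent Z2flag cells, against 109 and 106 CPM in subconfluent Z2flag cells. Z1flag cells had 24.8 and 40.8 CPM after confluence, against 92.8 and 109 CPM before. The subconfluent libraries were close to each other and the postconfluent ones spread over a wider relative range, all below them. The fall was 4.22-fold in Z2flag cells (log2 fold change -2.08, SE 0.31, edgeR adjusted p = 0.00101) and 3.09-fold in Z1flag cells (-1.63, SE 0.30, adjusted p = 0.00254). Per kilobase of exon, RNF43 exceeded ZNRF3 in all 4 postconfluent libraries, by 1.29 to 3.04 times, against 0.772 to 1.15 times in the subconfluent libraries. Reads from the exons that RNF43 shares with other genes are uncertain, so which gene was higher before confluence is uncertain too. The mean log2 ratio of RNF43 over ZNRF3 was 0.845 ± 0.575 after and -0.153 ± 0.249 before confluence (SD, n = 4 each). By a two-sided exact permutation test, p was 0.0556 within lines and 0.0286 with the lines pooled, the smallest possible in each case. Ratios that do not overlap always give these p-values, and the test was added after the data were seen, so they add no support.

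**Figure D2:**
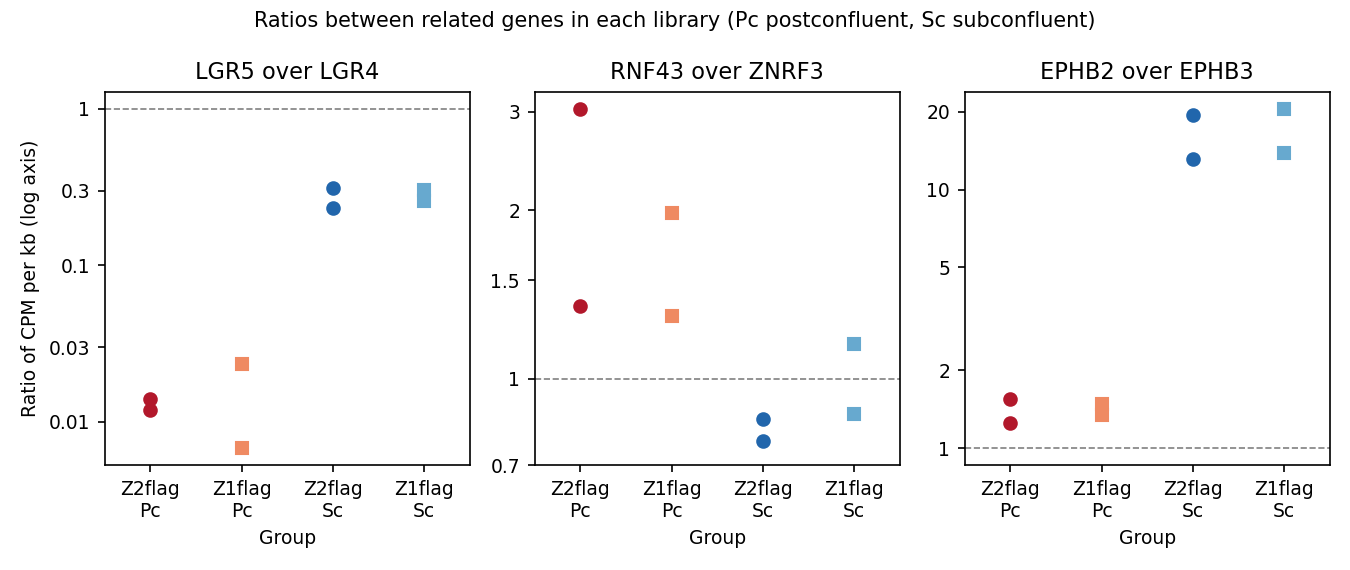
Ratio of CPM per kilobase of exon between related genes in each of the 8 libraries, by group, on a log axis; the dashed line marks equal levels. LGR5 over LGR4 and EPHB2 over EPHB3 are lower in every postconfluent (Pc) than in every subconfluent (Sc) library, and RNF43 over ZNRF3 is higher (1.29 to 3.04 against 0.772 to 1.15).

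AXIN2, the inducible scaffold of the beta-catenin destruction complex and a standard reporter of Wnt output (chromosome 17, 65528563 to 65561647, minus strand), had 21.7 and 13.2 CPM in postconfluent Z2flag cells, against 64.9 and 69.9 CPM in subconfluent Z2flag cells. The Z1flag libraries held 6.92 and 20.6 CPM after confluence, against 60.7 and 70.0 CPM before. The subconfluent libraries lay within a narrow range, while replicate 1 of postconfluent Z1flag cells lay well below the other 3 postconfluent libraries. The log2 fold change was -1.95 (SE 0.42, edgeR adjusted p = 0.0059) in Z2flag and -2.26 (SE 0.43, adjusted p = 0.00277) in Z1flag cells. The Z1flag value was -1.63 without postconfluent Z1flag replicate 1 and -3.24 without replicate 2 of that group. The Z2flag call was lost without postconfluent Z2flag replicate 2 (-1.55, adjusted p = 0.0745). A second annotated gene of the same strand covers 1316 bp (25.2%) of AXIN2 exons and had 0 to 12 reads per library, so reads from that stretch may not have been counted for AXIN2.

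ASCL2, a basic helix-loop-helix factor that maintains crypt stem cells (chromosome 11, 2268495 to 2270952, minus strand), had 4.47 and 4.39 CPM in postconfluent Z2flag cells, against 45.1 and 49.3 CPM in subconfluent Z2flag cells. The Z1flag libraries held 2.72 and 6.63 CPM after confluence, against 22.5 and 42.0 CPM before. After LGR5 this was the largest fall among the 9 tested genes, and the states did not overlap in either line. ASCL2 fell 10.6-fold in Z2flag cells (log2 fold change -3.41, SE 0.42, edgeR adjusted p = 0.000478) and 6.98-fold in Z1flag cells (-2.80, SE 0.41, adjusted p = 0.000845). The Z1flag value was -3.57 without postconfluent Z1flag replicate 2.

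The secreted markers SMOC2 and OLFM4 differed in whether they were expressed at all. SMOC2, a matricellular protein enriched in LGR5-positive stem cells (chromosome 6, 168441151 to 168673445, plus strand), had 2.32 and 2.41 CPM in postconfluent Z2flag cells, against 17.9 and 17.1 CPM in subconfluent Z2flag cells. In Z1flag cells it had 2.5 and 4.85 CPM after confluence, against 6.89 and 20.8 CPM before. The Z2flag replicates were close to each other, while the Z1flag replicates spread widely in both states. The log2 fold change was -2.89 (SE 0.51, edgeR adjusted p = 0.00226) in Z2flag and -1.93 (SE 0.48, adjusted p = 0.0107) in Z1flag cells. In Z1flag cells the call was lost without subconfluent replicate 2 (-0.92, adjusted p = 0.139) or postconfluent replicate 1 (-1.48, adjusted p = 0.0634), and the value was -2.54 without subconfluent replicate 1.

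OLFM4, a secreted glycoprotein that marks stem cells of the human intestine (chromosome 13, 53028759 to 53052057, plus strand), was close to absent. It had 2 reads in postconfluent Z1flag replicate 1, 1 read in postconfluent Z2flag replicate 1 and 0 in the other 6 libraries. Over the 124708206 gene counts of the 4 subconfluent libraries, 0 reads allow a level of up to 0.0241 CPM, the level of 3 counts, for counting error only. No fold is given. Of the 10 genes, RefSeq promoter windows (GRCh38.p14, 250 bases before to 50 after the start) were at hand for 6: LGR4, RNF43, SMOC2, OLFM4, EPHB2 and EPHB3. They were searched on both strands for the TCF/LEF heptamers CTTTGAA or CTTTGAT or CTTTGTA or CTTTGTT, which differ only in their last 2 bases. Of all first windows in the table, 13.9% hold at least 1. OLFM4 was the 1 gene of the 6 with a match, shown in capitals in its window at chr13:53028563-53028862 (plus strand), as the reverse complement of CTTTGTA and 227 bases before the start. A match is a description of letters, not a site of binding.

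OLFM4: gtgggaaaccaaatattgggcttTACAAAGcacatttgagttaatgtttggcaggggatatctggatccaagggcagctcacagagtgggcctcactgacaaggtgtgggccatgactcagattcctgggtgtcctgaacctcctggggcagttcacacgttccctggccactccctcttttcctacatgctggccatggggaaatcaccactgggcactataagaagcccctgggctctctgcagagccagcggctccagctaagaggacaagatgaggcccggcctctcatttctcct

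The receptors EPHB2 and EPHB3, tyrosine kinases that bind ephrin-B ligands and keep crypt cells in position by repulsion, moved in opposite directions. EPHB2 (chromosome 1, 22710839 to 22921500, plus strand) had 53.7 and 74.3 CPM in postconfluent Z2flag cells, against 189 and 182 CPM in subconfluent Z2flag cells. Z1flag cells had 54.1 and 85.3 CPM after confluence, against 110 and 158 CPM before. The groups did not overlap. The log2 fold change was -1.53 (SE 0.28, edgeR adjusted p = 0.00249) in Z2flag and -0.94 (SE 0.27, adjusted p = 0.0204) in Z1flag cells. The Z1flag call was lost without postconfluent Z1flag replicate 1 (-0.61, adjusted p = 0.0812) or subconfluent Z1flag replicate 2 (-0.66, adjusted p = 0.168).

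EPHB3 (chromosome 3, 184561784 to 184582409, plus strand), which in the crypt also marks Paneth cells, had 12.6 and 21.4 CPM in postconfluent Z2flag cells, against 5.2 and 3.4 CPM in subconfluent Z2flag cells. In Z1flag cells it had 13.2 and 22.9 CPM after confluence, against 2.88 and 2.79 CPM before. It was the 1 gene of the set whose rise passed in both lines, 3.93-fold in Z2flag cells (log2 fold change 1.98, SE 0.37, edgeR adjusted p = 0.00293) and 6.35-fold in Z1flag cells (2.67, SE 0.39, adjusted p = 0.000772). Both calls were kept under every alternative run. Per kilobase of exon, EPHB2 exceeded EPHB3 by 1.26 to 1.55 times in the postconfluent libraries, against 13.1 to 20.5 times in the subconfluent libraries. The mean log2 ratio was 0.489 ± 0.134 after and 4.03 ± 0.329 before confluence (SD, n = 4 each; two-sided exact permutation test, p = 0.0556 within lines and 0.0286 with the lines pooled, the smallest possible in each case). EPHB2 fell and EPHB3 rose without overlap, so these p-values were fixed in advance and add no support. The promoter windows of these paralogs are shown since the genes moved apart: EPHB2 at chr1:22710588-22710887 (plus strand, 83% G or C) and EPHB3 at chr3:184561535-184561834 (plus strand, 69% G or C). Neither holds a searched heptamer, so nothing is in capitals, and this says only that those letters are not in these windows.

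EPHB2: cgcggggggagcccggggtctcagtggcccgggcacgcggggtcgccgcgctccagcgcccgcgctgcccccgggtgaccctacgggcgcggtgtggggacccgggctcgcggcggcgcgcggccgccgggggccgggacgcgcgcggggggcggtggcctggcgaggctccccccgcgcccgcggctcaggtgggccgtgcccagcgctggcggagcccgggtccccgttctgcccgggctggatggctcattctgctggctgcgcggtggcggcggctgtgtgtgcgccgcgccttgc

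EPHB3: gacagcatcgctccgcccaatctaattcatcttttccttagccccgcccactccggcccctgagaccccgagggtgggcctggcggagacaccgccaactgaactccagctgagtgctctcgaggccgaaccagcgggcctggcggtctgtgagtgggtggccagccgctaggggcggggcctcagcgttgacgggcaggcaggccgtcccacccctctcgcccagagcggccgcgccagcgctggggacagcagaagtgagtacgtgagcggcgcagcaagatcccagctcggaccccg

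Genes were ranked by CPM per kilobase of exon, with all annotated exons of a gene joined, so their order depends on that choice. The order of levels changed between the states. As CPM per kilobase of exon, LGR4 stood first in both, at 45.8 ± 12.5 in postconfluent and 29.2 ± 2.17 in subconfluent cells (SD, n = 4 each). In postconfluent cells RNF43 (7.22), EPHB2 (5.34), ZNRF3 (4.18), EPHB3 (3.87), AXIN2 (2.98) and ASCL2 (2.46) followed, and each of these overlapped the next in its range over libraries. SMOC2 (0.748) and LGR5 (0.592) came below ASCL2 without overlap with it, and they overlapped each other. In subconfluent cells ASCL2 (21.5) came second and overlapped LGR4. ZNRF3 (15.0), RNF43 (13.5), EPHB2 (12.7) and AXIN2 (12.7) followed with overlapping ranges. LGR5 (8.08), SMOC2 (3.89) and EPHB3 (0.788) each stood apart from their direct neighbours in rank. LGR5, at up to 9.41, still overlapped EPHB2, at 8.78 or more. EPHB3 thus stood above AXIN2 and ASCL2 in mean level after confluence, with ranges that overlapped both, and below both before it. Reads from 25.2% of AXIN2 exons may not have been counted, so its order against EPHB3 after confluence is uncertain.

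The lines were compared next. For none of the 9 genes did the confluence change differ between the lines by edgeR's interaction test, with adjusted p of 0.799 to 0.935. Of the 9, 0 had an unadjusted p under 0.05, also with DESeq2 and limma voom, and 0% of all genes passed the interaction test with adjustment. The largest estimate was for SMOC2, whose change in Z2flag minus that in Z1flag cells was -0.96 (SE 0.68). For LGR5 this difference was -0.20 (SE 0.46) and for AXIN2 0.31 (SE 0.58). With SE of 0.27 to 0.68 on the log2 scale, differences of such size were not detectable here.

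Between Z2flag and Z1flag cells of the same state, 0 of 9 genes passed in subconfluent and 0 of 9 in postconfluent cells by edgeR, with 0 of 9 at an unadjusted p under 0.05 in each state and 0 of 9 by DESeq2 or limma voom. In each state 0% of all genes passed. In subconfluent cells the libraries did not overlap for EPHB3, ASCL2 and EPHB2, higher in Z2flag cells, and for RNF43, lower there, which is 4 of 9 genes where 43.5% of all genes did not overlap (26.3% higher, 17.2% lower in Z2flag cells). EPHB3 had 5.2 and 3.4 CPM in Z2flag and 2.88 and 2.79 CPM in Z1flag cells before confluence (log2 fold change 0.60, SE 0.38, adjusted p = 1). ASCL2 had a log2 fold change of 0.55 (SE 0.37) and EPHB2 of 0.47 (SE 0.27) in the same comparison. In postconfluent cells SMOC2 alone did not overlap, lower in Z2flag cells (-0.62, SE 0.51), where 28.2% of all genes did not overlap (15.3% lower, 12.9% higher). AXIN2 passed in postconfluent cells without postconfluent Z1flag replicate 2 (log2 fold change 1.39, adjusted p = 0.0211), which leaves the lower library of that group alone.

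**Figure D3:**
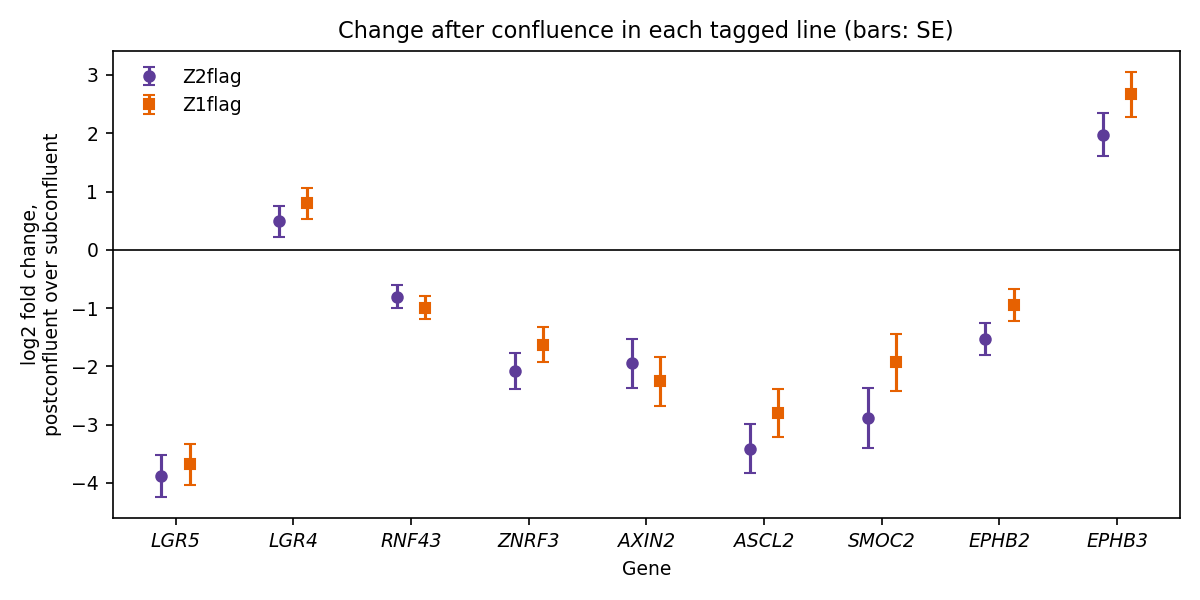
Log2 fold change after confluence of each tested gene in each tagged line, from edgeR's fit to all 8 libraries; bars are 1 SE. LGR5 has the largest fall in both lines (-3.88 in Z2flag, -3.68 in Z1flag cells), EPHB3 and LGR4 are above 0, and the lines lie farthest apart for SMOC2 (-2.89 in Z2flag, -1.93 in Z1flag cells).

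Other Wnt targets were mixed, with more genes lower than higher. Of 20 tested, 10 fell and 4 rose over both lines by edgeR's test (27.5% and 27.8% of all genes), with a median log2 fold change of -0.65. NKD1, a feedback inhibitor that binds Dishevelled, fell to 22.4 ± 5.78 CPM in postconfluent cells, against 92.4 ± 14.9 CPM in subconfluent cells (SD, n = 4 each), and TNFRSF19, a receptor found on crypt stem cells, to 41.3 ± 4.32 CPM, against 116 ± 14.2 CPM. LEF1, a nuclear partner of beta-catenin and itself a target, fell by 1.51 (SE 0.19) on the log2 scale. SOX4, a transcription factor, rose by 1.08 (SE 0.14). SP5, a zinc finger factor induced by Wnt and named after its value was seen, fell by 1.99 (SE 0.29).

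Of 9 genes listed for the destruction complex, without AXIN2, which is described above, 2 fell and 0 rose by edgeR's test. Among all genes 27.5% fell and 27.8% rose. The falls were those of AMER1 (-1.67, SE 0.17) and BTRC (-0.65, SE 0.17). With upper-quartile scaling, with a filter of at least 1 CPM in 2 libraries, or without postconfluent Z1flag replicate 1, 1 of the 9 rose. AXIN2, also a part of this complex, fell over both lines (log2 fold change -2.10, SE 0.30, edgeR adjusted p = 0.000266). CTNNB1, the beta-catenin gene, did not pass (log2 fold change -0.10, SE 0.15, adjusted p = 0.605). It was singled out after its value was seen. Of 12 nuclear effectors tested, 4 fell and 3 rose, which is near the shares of all genes. TCF7L2, the main TCF factor of the intestine, rose to 50.9 ± 8.23 CPM in postconfluent cells, against 17.2 ± 4.32 CPM in subconfluent cells (SD, n = 4 each), and TLE2, a corepressor, rose by 1.21 (SE 0.19), while LEF1 fell.

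At the membrane, 4 of 15 tested receptors, co-receptors and Dishevelled genes fell and 4 rose, where 27.5% of all genes fell and 27.8% rose, so these counts set the list apart in neither direction. Without postconfluent Z1flag replicate 2, 7 fell. The co-receptor LRP5 rose to 209 ± 32.0 CPM in postconfluent cells, against 85.1 ± 9.19 CPM in subconfluent cells (SD, n = 4 each). ROR1 and RYK, receptors of beta-catenin-independent Wnt signalling, fell with log2 fold changes of -2.92 (SE 0.13) and -0.91 (SE 0.13). Of 13 tested genes for Wnt ligands and their secretion, 5 rose and 4 fell, among them WNT11 (1.00, SE 0.18), WNT3 (-1.32, SE 0.18) and WNT5B (-1.43, SE 0.19). The rises numbered 3 without subconfluent Z1flag replicate 2, subconfluent Z2flag replicate 2 or postconfluent Z2flag replicate 2, and 2 with a filter of at least 1 CPM in 2 libraries.

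Of 6 secreted inhibitors and their receptors tested, 2 fell and 1 rose, where 27.5% of all genes fell and 27.8% rose. DKK1, an inhibitor that binds LRP co-receptors, fell to 78.9 ± 35.9 CPM in postconfluent cells, against 302 ± 44.5 CPM in subconfluent cells (SD, n = 4 each), and KREMEN2, a receptor for DKK proteins, rose by 1.83 (SE 0.33). KREMEN2 overlaps exons of PKMYT1 on the opposite strand, so its counts are uncertain to the extent that counting ignored strand. DKK3 passed narrowly (log2 fold change -0.59, SE 0.20, edgeR adjusted p = 0.0325), and 8 alternatives ended its call with adjusted p of 0.057 to 0.169. Without DKK3 1 gene of this list fell, as when postconfluent Z1flag replicate 1, subconfluent Z1flag replicate 2 or any 1 Z2flag library was left out. The rises numbered 2 when postconfluent Z2flag replicate 1 or either of the postconfluent Z1flag libraries was left out.

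Of 14 other stem and reserve cell markers tested, 5 fell and 3 rose (median log2 fold change -0.33), near the shares of all genes (27.5% and 27.8%). SLC12A2, a chloride cotransporter of crypt cells, fell to 33.9 ± 7.20 CPM in postconfluent cells, against 266 ± 79.1 CPM in subconfluent cells (SD, n = 4 each). CD24, a surface protein of crypt progenitors, rose by 2.80 (SE 0.34) at a low level. TNFRSF19 is in this list as well as among the Wnt targets.

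Ephrin ligands and other Eph receptors changed too. Of 7 ephrin ligands tested, from the A and B classes together, 5 rose and 1 fell over both lines by edgeR's test. Their median log2 fold change was 1.39, and among all genes 27.8% rose and 27.5% fell. The B class, which EPHB2 and EPHB3 bind, was mixed. EFNB1, a ligand of EphB receptors, rose to 61.9 ± 6.25 CPM in postconfluent cells, against 18.6 ± 0.797 CPM in subconfluent cells (SD, n = 4 each), whereas EFNB2, of the same class, fell to 34.7 ± 11.8 CPM, against 175 ± 33.2 CPM. EFNB3, also of the B class, had 0.892 CPM in postconfluent and 0.885 CPM in subconfluent cells on average. EFNA1, a ligand of EphA receptors, rose by 4.19 (SE 0.16) on the log2 scale. Without postconfluent Z1flag replicate 2, 2 ligands fell. Of 6 other Eph receptors tested 3 rose and 1 fell. EPHA4 fell by 2.85 (SE 0.26) and EPHA10 rose by 1.01 (SE 0.25). EPHB4 passed narrowly (log2 fold change 0.38, SE 0.13, edgeR adjusted p = 0.0319), and 7 alternatives ended its call, among them those without each subconfluent library in turn and without postconfluent Z2flag replicate 2 (adjusted p up to 0.164).

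**Figure D4:**
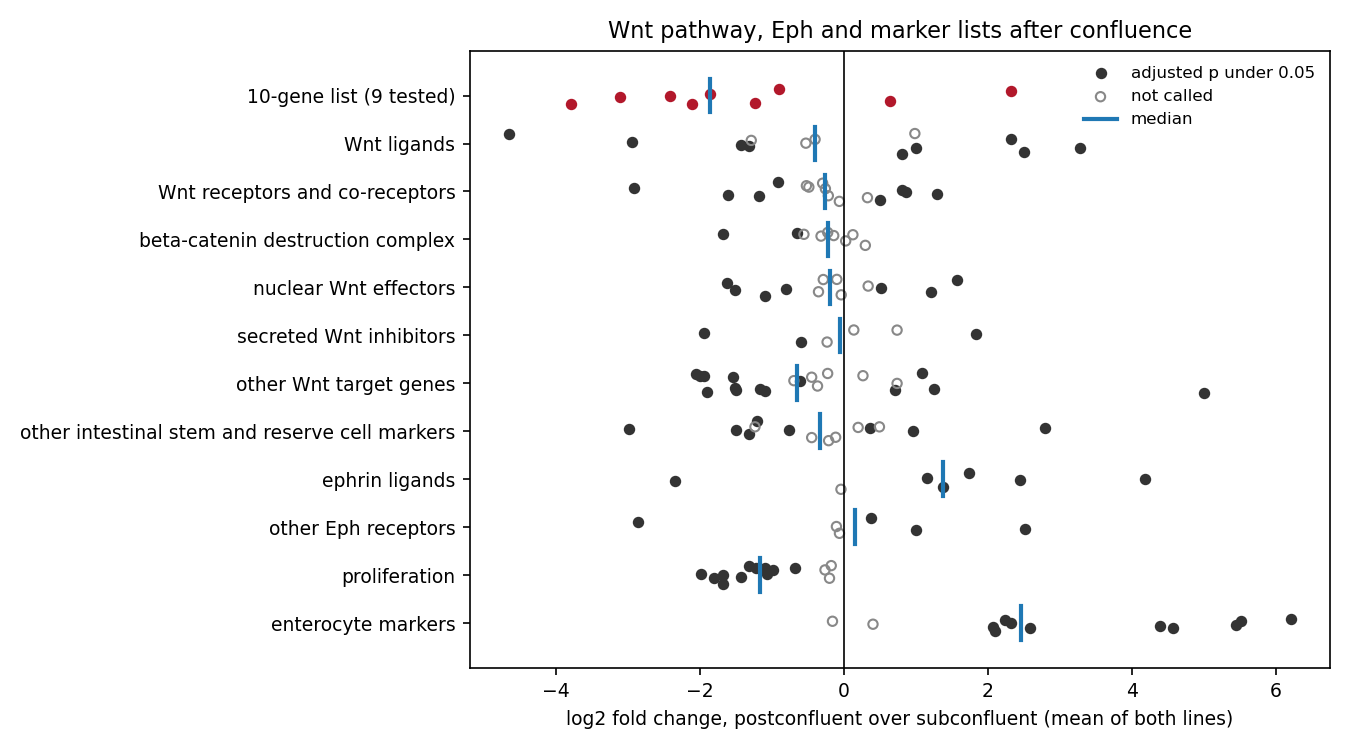
Log2 fold change after confluence, mean of both lines, of every tested gene in the 10-gene list and in 11 related lists; filled points passed edgeR's test at an adjusted p under 0.05, open points did not, and blue bars are list medians. The 10-gene list has a median of -1.85, proliferation genes -1.16, other Wnt targets -0.65 and ephrin ligands 1.39.

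Markers of differentiated cells moved with the state as well. Of 12 tested enterocyte markers, 10 rose and 0 fell over both lines by edgeR's test (median 2.46), where 27.8% of all genes rose and 27.5% fell. The 13 listed summed to 2559 to 3421 CPM in postconfluent and 922 to 1590 CPM in subconfluent libraries. The apolipoprotein APOA4, the protease MEP1A and the protocadherin CDHR2 rose by 5.52 (SE 0.29), 4.58 (SE 0.30) and 5.45 (SE 0.41) on the log2 scale. Goblet cell markers summed to 556 to 819 CPM in postconfluent and 254 to 321 CPM in subconfluent libraries. Most of this was AGR2, at 585 CPM in postconfluent and 268 CPM in subconfluent cells on average. Of 7 markers listed, 3 of 3 tested rose (ZG16 by 3.06, AGR2 by 1.12 and TFF3 by 2.11). TFF3 did not pass with no filter on low counts (2.06, edgeR adjusted p = 0.0619). SPDEF, FCGBP, CLCA1 and the defining mucin MUC2 had too few reads to test. MUC2 had 5 and 1 reads in postconfluent and subconfluent cells.

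Paneth cell markers, of interest beside EPHB3, summed to 10.4 to 25.5 CPM in postconfluent and 3.97 to 12.6 CPM in subconfluent libraries. Of 4 tested 1 rose and 1 fell over both lines, where 27.8% of all genes rose and 27.5% fell. LYZ, which made up most of the sum at 13.6 CPM in postconfluent and 8.58 CPM in subconfluent cells on average, did not pass. PLA2G2A rose by 3.51 (SE 0.41) at a low level, 1.98 CPM in postconfluent against 0.168 CPM in subconfluent cells. The fall was that of the defensin gene DEFA5, with 1 read in postconfluent and 49 in subconfluent cells. DEFA6, another defensin gene, had 0 and 10 reads. The rises numbered 4 with no filter on low counts, and 2 with DESeq2, with upper-quartile scaling, or without either postconfluent Z1flag library, subconfluent Z1flag replicate 2 or postconfluent Z2flag replicate 2. Of 2 enteroendocrine markers tested 1 rose (SCG5, 1.31, SE 0.32), with a summed level of 2.48 to 4.2 CPM in postconfluent and 1.64 to 2.11 CPM in subconfluent libraries, and CHGA, NEUROD1 and NEUROG3 were at 0 in all 8 libraries. Of 4 tuft cell markers tested 1 rose and 1 fell. The list summed to 32.9 to 47.8 CPM in postconfluent and 41.9 to 68.3 CPM in subconfluent libraries, with DCLK1 at 0. Most of this was IL17RB, at 37.1 CPM in postconfluent and 52.7 CPM in subconfluent cells on average. The fall, IL17RB (-0.50, SE 0.17), did not pass in 6 alternatives (highest adjusted p = 0.176), which left 0 without replicate 2 of either Z1flag group or replicate 1 of either Z2flag group, and 0 rose when replicate 1 of subconfluent Z1flag cells or replicate 2 of subconfluent Z2flag cells was left out.

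Of 4 fibroblast markers tested 3 fell and 1 rose, where 27.5% of all genes fell and 27.8% rose. The list summed to 56.5 to 80.3 CPM in postconfluent and 172 to 212 CPM in subconfluent libraries. PDGFRA (-3.29, SE 0.32) and COL3A1 (-2.80, SE 0.44) fell and COL1A1 rose (1.56, SE 0.16), while COL1A2 was at 0 in all 8 libraries and DCN did not exceed 0.285 CPM. The part of any of these marker genes in the changes of the 10 genes was not tested.

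The genes whose levels over the 8 libraries were most like LGR5, among 10424 protein-coding genes with a mean of at least 5 CPM, were TBC1D4 (Pearson r = 0.998), ERVMER34-1 (0.998) and GLDC (0.998). For AXIN2 they were TXLNA (0.999), AEN (0.998) and EMC8 (0.998). The points share the split of the libraries into 2 states, which any gene with a large change after confluence follows, and the r values are given as a description.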

How the data were processed

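The 10 genes, the 17 related gene lists and the tests were chosen with earlier results of these data known. The deposited values are raw read counts for each Ensembl gene ID, made by the authors from paired-end reads of 8 libraries. STAR 2.5.2b, SAMtools, HTSeq and the build hg38 appear in the submitters' processing notes. Of the annotation, the counting mode and the strand setting, the sources used here say nothing. HTSeq's classes of unassigned reads were left out of library sizes.

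Symbols came from a gene name table (57532 of 58302 IDs) and positions and exon lengths from GENCODE release 29 on GRCh38. Exon lengths joined all annotated exons of a gene, whichever transcripts are expressed here. Ratios and order between genes depend on that choice. Genes were kept by edgeR's filter at a minimum count of 10 and a minimum total of 15, which left 18240. The 4 group means were fitted with edgeR 4.0.16 under R 4.3.3, after TMM scaling, by robust quasi-likelihood with 4 residual degrees of freedom. Benjamini-Hochberg adjustment covered all genes tested, with a threshold of 0.05. An SE is the size of the log2 fold change divided by the square root of F. Changes are postconfluent over subconfluent, and differences between lines Z2flag over Z1flag. Upper-quartile scaling put the median change of all genes over both lines at 0.18 on the log2 scale, against -0.01 with TMM, and no tested gene of the 10 changed direction.

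Named were all 10 genes, in each list the 3 that passed over both lines with the lowest adjusted p and a mean of at least 1 CPM, the first of the other direction, and the 3 genes most correlated in log2 CPM with LGR5 and with AXIN2. Alternatives were other scalings (RLE, upper quartile), DESeq2 1.42.0, voom of limma 3.58.1, other filters, replicate blocks, fits of only the libraries compared, and fits without single libraries or without both Z1flag libraries of experiment 1. A library left alone in its group was assumed to vary like the other groups.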

Additional observations from a re-analysis of the deposited data

Results flagged for a closer look

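SMOC2 in postconfluent cells was marked because 1 library stood far from the others. Postconfluent Z1flag replicate 2 had 4.85 CPM, while the other 3 postconfluent libraries had 2.32 to 2.5 CPM, and its gap on the log2 scale was 0.899 of the range of the 4 libraries, above Dixon's critical value. Of 18 such groups of 4 libraries examined for the 9 tested genes, chance marks about 1 in 20. With it left out, the Z1flag change of SMOC2 kept its call.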

How the results depend on the processing

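Every value of the 9 tested genes that passed kept its direction under each alternative run, and of all their recomputed values 891 kept direction and side of the threshold, 19 lost a call, 5 gained one and 48 that had not passed changed sign. For the number of genes that rose in Z1flag cells (2), the value was 1 with the replicate block within each line, with only the libraries compared, and without both Z1flag libraries of experiment 1, and 1 to 2 when single libraries were left out. For those that rose in Z2flag cells (1), it was 2 with only the libraries compared and without both Z1flag libraries of experiment 1, and 1 to 2 with single libraries left out. Over both lines the rises numbered 1 to 2 with single libraries left out, and between lines in postconfluent cells 0 to 1 genes were higher in Z2flag cells. LGR4 accounts for the changes in rises after confluence and AXIN2 for that between lines. The cause was not tested. Numbers of genes that fell stayed within 1.5 times of 7. Experiment numbers did not mark shared material by any label, and deviations of equally numbered libraries correlated at -0.184 to 0.274 across genes. A replicate block over both lines left the counts of 7 lower and 1 higher gene in Z2flag cells and 7 lower and 2 higher genes in Z1flag cells. A crossed replicate block within Z2flag cells, chosen after seeing the data, gave 7 lower and 1 higher. EPHB2 in Z1flag cells did not pass with only the libraries compared (adjusted p = 0.059). The 3 ratios between related genes had p = 0.0286 with the lines pooled and 0.0556 with libraries exchanged within each line only, a two-sided exact permutation test added after seeing the data. For LGR5 over LGR4 and EPHB2 over EPHB3 these values followed from opposite changes without overlap. For RNF43 over ZNRF3 they followed from ratios that did not overlap between the states. OLFM4 and the R-spondin genes had too few reads to test.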

Other observations

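Receptors of beta-catenin-independent Wnt signalling were looked at after their values were seen. ROR1 had 17.0 ± 1.45 CPM in postconfluent and 129 ± 15.3 CPM in subconfluent cells (SD, n = 4 each; log2 fold change -2.92, SE 0.13, edgeR adjusted p = 1.71e-06), while its ligand gene WNT5A had 13.5 and 19.8 CPM on average and did not pass (log2 fold change -0.53). The Frizzled receptors FZD5 and FZD4, picked in the same way but not as members of that class, rose by 0.87 and 0.81 on the log2 scale. FZD4 overlaps PRSS23 exons on the opposite strand, so its counts are uncertain to the extent that counting ignored strand.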
